A study of Mus musculus with 12 samples.

Results

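CD4 T cells of the pancreatic islets with little or no CD62L on their surface were split by how much CD11a protein they carried. Members were chosen by antibody counts and a few RNA counts in single cells. A cell barcode needed at least 500 RNA UMIs (unique molecular identifiers, 1 per captured molecule), a mitochondrial share of at most 8%, a UMI of any of the CD3 genes Cd3d, Cd3e and Cd3g, and a CD4 antibody count of at least 40. It also needed no UMI of Cd8a, Cd8b1 or Foxp3, a CD62L antibody count of at most 3, and fewer than 2 productive T cell receptor beta chains. CD11a-high cells had a CD11a antibody count of at least 200 and CD11a-low cells a count of 20 to 120. Of 27423 barcodes in the 4 libraries, 5590 were CD62L-low CD4 cells, and 4398 of these fell in a gate: 2740 were CD11a-high and 1658 CD11a-low. Another 1125 lay between the gates and 67 under them.

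The T cells came from the islets of 12 week old female NOD mice, a strain that develops autoimmune diabetes spontaneously, taken at the pre-diabetic stage. Live cells carrying the TCR beta chain were sorted, and 4 biological replicates were captured in droplets, each giving 5' RNA, T cell receptor and antibody counts for the same cells. All groups therefore shared strain, sex, age and tissue, and both sides of every comparison came from the same droplet library. Whether each replicate was 1 mouse or several pooled ones is not stated in the labels.

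CD11a is the alpha chain of LFA-1, the beta2 integrin through which a T cell holds on to cells that carry ICAM-1. The gene for CD11a is Itgal and that for its partner chain CD18 is Itgb2. Naive T cells carry little CD11a and raise it after antigen encounter, while CD62L, the other gated protein, lets naive and central memory cells enter lymph nodes and is lost on activation. Islet CD4 T cells recognise beta cell antigens and help to drive the disease.

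The gates were read from DNA tags on the CD11a, CD62L and CD4 antibodies, shown because every cell was assigned by counting them. The PE tag, listed last, set no gate. Counts of it were found in 13.9%, 14.3%, 10.5% and 9.77% of the CD11a-high cells of replicates 1 to 4. In CD11a-low cells the shares were 10.4%, 10.2%, 7.2% and 8.69%. The letters are those in the submitters' protocol.
CD11a: agagtctccctttag
CD62L: tgggcctaagtcatc
CD4: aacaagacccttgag
PE, the readout of CD8b: aacctttgccactgc

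The 4 libraries held 6175, 4136, 8718 and 8394 barcodes with 34661827, 26861163, 37834174 and 32141055 RNA UMIs. Between 36 and 102 barcodes had the same sequence in 2 libraries. CD11a-high cells numbered 588, 533, 677 and 942 in replicates 1 to 4 and CD11a-low cells 336, 512, 361 and 449. The median CD11a count was 392.5, 340.0, 347 and 334 on the high side and 72, 66, 80 and 77 on the low side. The gates did not separate CD11a alone. The median CD4 antibody count was 452, 312, 364 and 397 in CD11a-high cells against 179, 115.5, 175 and 185 in CD11a-low cells, and the median RNA UMIs per cell were 4996, 5271, 4355 and 3759.5 against 2895, 3424.5, 3187 and 2551. The median mitochondrial share lay between 1.82% and 2.14% on either side.

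Sums of UMIs over the cells of 1 side and 1 library were compared with edgeR's quasi-likelihood test, with the library as a block, over 10203 genes. A gene is called when its Benjamini-Hochberg adjusted p was under 0.05. A level is given in CPM, UMIs of a gene per 1000000 UMIs of that sum, and a difference as the log2 fold change of CD11a-high to CD11a-low with its standard error (SE). The contrast was wide: 4375 genes (42.9%) were called, 2288 higher (22.4%) and 2087 lower (20.5%) in CD11a-high cells, and the median change over all tested genes was -0.01. Of the called genes, 809 had a log2 fold change of at least 1 and 363 of at most -1. These percentages are the background against which the counts of each list below are read.

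The cells carried the RNA of the gated protein, and 3 further marker genes split them. Itgal measured 269.98, 268, 313 and 271 CPM in the CD11a-high cells of replicates 1 to 4 and 185, 187, 192 and 198 CPM in the CD11a-low cells, a difference of 0.55 ± 0.06 (edgeR adjusted p = 2.0e-07). The groups did not overlap, although RNA differed far less than the antibody counts. Pdcd1, the gene for the inhibitory receptor PD-1, measured 165, 244, 207 and 194 CPM on the high side and 46.3, 50.6, 86.6 and 37.1 on the low side (1.91 ± 0.21, edgeR adjusted p = 0.0015). Il21, a cytokine that helps B cells and CD8 T cells, measured 124, 141, 164 and 170.4 CPM against 27.6, 23.6, 48 and 23.3 (2.32 ± 0.14, edgeR adjusted p = 3.6e-09). Il7r, the receptor chain through which resting and memory T cells receive interleukin 7, went the other way, with 94.3, 108, 167 and 149 CPM on the high side and 409.99, 496, 495 and 523 on the low side (-1.92 ± 0.10, edgeR adjusted p = 3.7e-07). For all 3 the lowest library of the higher side stood above the highest library of the other. These 4 genes were chosen with earlier results of these data known.

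**Figure D1:**
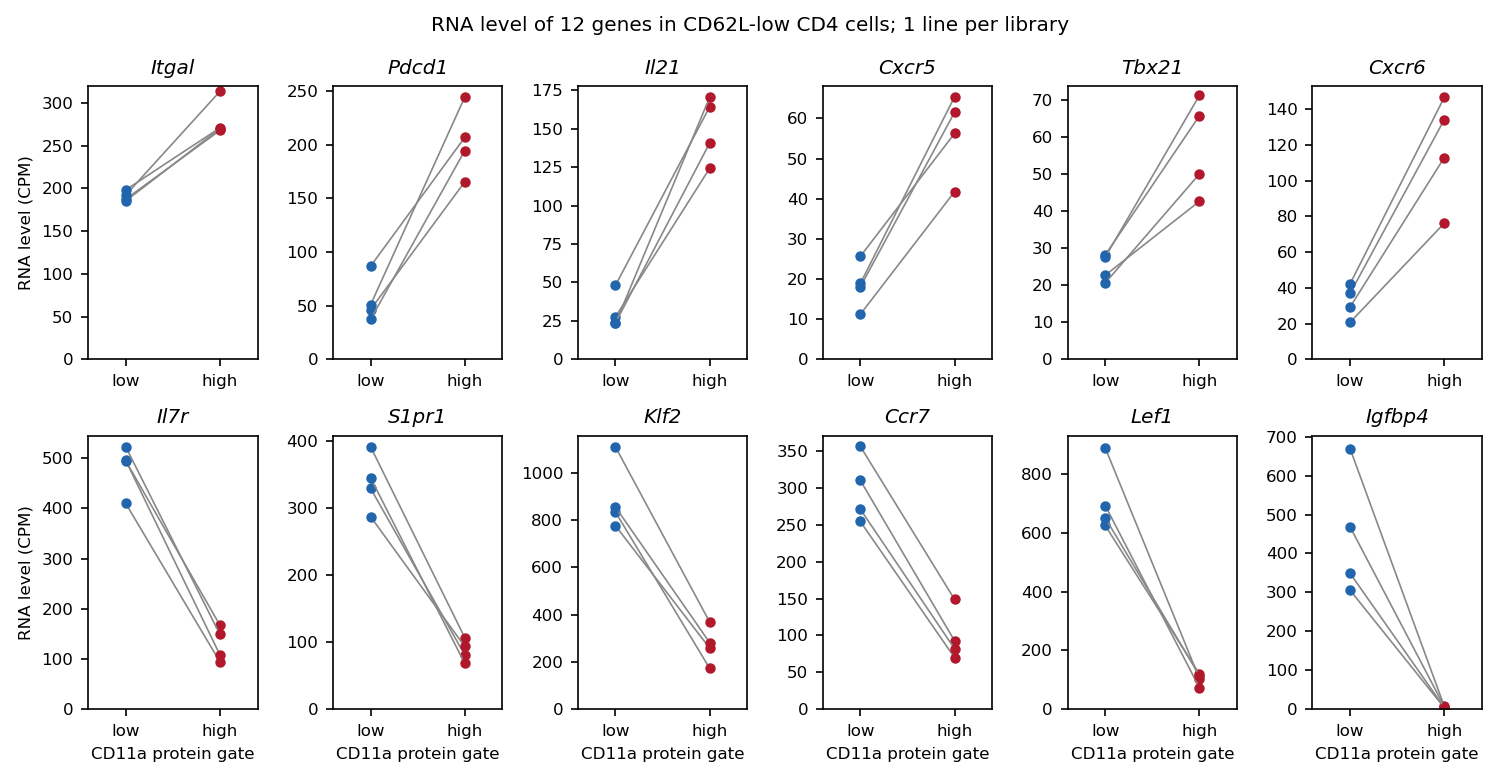
RNA level in CPM (vertical axes, from 0) of 12 genes in CD11a-low (blue) and CD11a-high (red) cells, with 1 line per library (n = 4). Itgal, Pdcd1, Il21, Cxcr5, Tbx21 and Cxcr6 rise in each of the 4 lines and Il7r, S1pr1, Klf2, Ccr7, Lef1 and Igfbp4 fall in each.

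Il21 was spread over many cells. With every cell thinned to 1000 UMIs, at least 1 Il21 UMI was found in 12.2% ± 1.48 (SD, n = 4 libraries) of CD11a-high cells and 1.49% ± 0.79 of CD11a-low cells. Without thinning the shares were 32.6% ± 2.55 and 3.58% ± 1.19. B cell-like barcodes, which should not make Il21, had one in 0.168% ± 0.337 unthinned, at a median of 3688 RNA UMIs against 4453 and 2958 for the high and low cells pooled over libraries. Il7r UMIs were found in 13.5% ± 4.02 of thinned CD11a-high and 33.3% ± 4.24 of thinned CD11a-low cells (unthinned 29.1% ± 2.98 and 53.6% ± 5.86, B cell-like barcodes 0.368%), so a minority of CD11a-high cells had a UMI of this receptor. Thinning left out 50 CD11a-high and 80 CD11a-low cells with fewer UMIs.

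The CD11a-low side carried more RNA of most genes, though not all, of a list of naive, stem-like and memory T cell genes. Of 20 tested genes of that list, 15 fell and 3 rose in CD11a-high cells, with a median of -1.5. Igfbp4, an insulin-like growth factor binding protein that marks naive T cells, had the lowest fold change of all genes ranked: 6.71, 6.25, 3.39 and 3.84 CPM on the high side against 669, 468, 305 and 349 on the low side (-6.46 ± 0.09, edgeR adjusted p = 1.3e-23). Lef1, a Wnt-responsive transcription factor of naive cells, measured 104, 72.6, 119 and 114 CPM against 889.96, 693, 625 and 651 (-2.81 ± 0.21). Satb1, a chromatin organiser, changed by -2.68, Dapl1, expressed in naive and early memory cells, by -3.56, and Bach2, a repressor that restrains effector differentiation, by -1.87. Ccr7, which guides cells into lymph nodes, measured 149, 92.8, 69.9 and 82 CPM on the high side and 357, 311, 255 and 271 on the low side. Members of the list that rose were Slamf6, a receptor of stem-like cells (0.35 ± 0.08), Cd28 (0.19) and Myb (0.75). The call of Cd28 was lost without replicate 2 (0.16) and that of Myb without replicate 3 or 4 (0.47 and 0.71).

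Tcf7, which encodes TCF1, the transcription factor most used to define stem-like T cells, was close to equal. It measured 421, 410.3, 337 and 371 CPM in CD11a-high cells and 433, 406, 419 and 455 CPM in CD11a-low cells, and the groups overlapped. Its difference of -0.16 ± 0.06 was called (edgeR adjusted p = 0.044) but not without replicate 3 or without replicate 4 (-0.11 and -0.10), and it was 0.01 among cells matched on RNA UMIs. Id3, a stem-like cell regulator, differed by 0.04 ± 0.13 and was not called. The genes of the list with the largest differences were thus not these.

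For reference, the CD11a-low cells were set beside CD4 cells with a CD62L antibody count of at least 15 and the same low CD11a gate (3108 cells). In that reference Lef1 was at 1099 ± 75.1 CPM and Igfbp4 at 774 ± 90.8, so the CD11a-low CD62L-low cells lay between it and the CD11a-high cells for these genes. The reference also had less RNA of activation genes: 6.7 ± 2.53 CPM of Pdcd1, 0.794 ± 1.03 of Il21, 2.18 ± 0.89 of Lag3 and 3.73 ± 1.83 of Cxcr6, against 46.3, 50.6, 86.6 and 37.1 CPM of Pdcd1 in the CD11a-low CD62L-low cells of replicates 1 to 4. Il7r was alike in both, at 464 ± 49.5 CPM in the reference. These reference levels were not tested, and they lack the TMM scaling of the levels of the 2 sides.

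Genes that keep T cells in circulation were lower in CD11a-high cells. Of 13 tested genes, 12 fell and none rose, with a median of -1.2. S1pr1, the receptor that leads T cells out of tissue, measured 80.7, 68, 107 and 93.3 CPM on the high side and 329, 345, 391 and 287 on the low side (-1.96 ± 0.10, edgeR adjusted p = 3.2e-08). Klf2, the transcription factor that drives S1pr1, measured 258, 173, 281 and 368 CPM against 776, 833, 854 and 1109 (-1.76 ± 0.15, edgeR adjusted p = 0.0014). Rasgrp2, an activator of Rap1 that switches integrins on, changed by -1.8 ± 0.12 and Itgb7, a gut-homing integrin chain, by -1.22 ± 0.06. Cxcr4 differed by 0.05 ± 0.12 and was not called. Other ranked genes that fell furthest were Pdlim4 (-4.95), Treml2 (-3.25), St8sia6, a sialyltransferase (-2.98), Atp1b1, a sodium pump subunit (-2.8), Als2cl (-2.78), Tgtp1, an interferon-inducible GTPase (-2.66), and Pik3ip1, an inhibitor of PI3 kinase (-2.65).

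The CD11a-high side carried the RNA of follicular and peripheral helper T cells, which supply Il21 and help to B cells. Of 21 tested genes of the list, 18 rose and 3 fell (median 1.64). Cxcr5, the receptor that leads helper cells into follicles, measured 56.2, 61.5, 65.4 and 41.7 CPM on the high side and 25.6, 18, 18.9 and 11.2 on the low side (1.64 ± 0.14, edgeR adjusted p = 3.6e-09). Bcl6, the lineage-defining repressor, measured 68.4, 82.3, 73.3 and 55.3 CPM against 19.7, 23.6, 30.9 and 32.7 (1.4 ± 0.15). Tox2, a factor of follicular helper cells, measured 133, 150.3, 126 and 103 CPM against 37.5, 18, 29.2 and 12.9 (2.47 ± 0.18), with no overlap between the sides in any of these 3. Icos, a costimulatory receptor, rose by 1.23, Maf, which drives Il21, by 1.35, Ascl2, which induces Cxcr5, by 2.11, and Angptl2 by 2.45. Those that fell were the interleukin 6 receptor chains Il6ra (-1.07 ± 0.07) and Il6st (-0.38, but -0.09 and not called among cells matched on RNA UMIs) and the CD40 ligand gene Cd40lg (-0.22 ± 0.08, edgeR adjusted p = 0.022), whose call was lost without replicate 2, 3 or 4 (-0.15, -0.20 and -0.24) and which was 0.18 among matched cells.

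Inhibitory receptors rose with them. Of 21 tested genes of the inhibitory receptor and exhaustion list, 17 rose and none fell (median 1.43). Lag3, a receptor for MHC class II, measured 279.7, 394, 318 and 357 CPM on the high side and 85.7, 74.8, 86.6 and 81 on the low side (2.05 ± 0.09, edgeR adjusted p = 3.7e-11). Tigit measured 191, 279, 250.1 and 290.1 CPM against 73.9, 40.5, 66.9 and 67.2 (2.07 ± 0.25). Ctla4, which competes with CD28 for its ligands, rose by 1.57, the ectoenzyme gene Cd38 by 2.06, Cd200 by 1.99 and Tox, the transcription factor of exhausted cells, by 0.99 ± 0.09. Havcr2, which encodes TIM-3, a receptor of terminally exhausted cells, measured 7.57, 12.5, 14.2 and 17.4 CPM against 8.87, 2.25, 6.01 and 0. Its difference of 1.68 ± 0.68 was not called (edgeR adjusted p = 0.11) but was called without replicate 1 (2.41) and without replicate 4 (1.13).

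Th1 genes and tissue residence genes were higher as well. Of 16 tested Th1 and effector cytokine genes, 15 rose and none fell (median 1.21). Tbx21, which encodes the Th1 factor T-bet, measured 42.6, 65.7, 49.98 and 71.2 CPM on the high side and 22.7, 28.1, 20.6 and 27.6 on the low side (1.21 ± 0.13, edgeR adjusted p = 4.4e-08), and Ifng measured 69.4, 138, 122 and 130.3 CPM against 23.7, 37.7, 72.1 and 71.5 (1.22 ± 0.20, edgeR adjusted p = 0.0040). The sides did not overlap for Tbx21 and did for Ifng, which was higher on the high side in 4 of 4 libraries. The chemokine receptor genes Cxcr3 and Cxcr6 rose by 1.2 and 1.87. Bhlhe40, a factor of cytokine production and residence, rose by 2.12 ± 0.08. Of 4 tested Th17 and Th2 genes 3 rose, Ccr8 most (2.2), and Gata3 was not called (0.02 ± 0.11). Of 14 tested residence genes 11 rose and none fell (median 1.48), among them Itgae, which encodes the E-cadherin binding chain CD103 (1.24 ± 0.27), and Itga1 (1.88). Cd69, an early activation and residence marker, did not differ beyond its error (0.04 ± 0.07). Of 17 tested granule genes 9 rose, Gzmb by 2.08 and Gzmk by 1.39, and Prf1, which encodes perforin, fell from 23.7, 25.3, 14.6 and 29.3 CPM to 1.3, 2.08, 7.01 and 3.48 CPM (-2.8 ± 0.45). Gzmb and Itga1 were each called in 3 of the 4 fits with 1 replicate left out. Neither was tested among cells matched on RNA UMIs or with cells thinned.

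Several genes with the highest fold changes came from very few barcodes. Jchain and Mzb1, both genes of antibody-secreting cells, had the top 2 fold changes among ranked genes (5.6 and 5.43), yet Jchain was read in 35 of 2740 CD11a-high barcodes, and the 3 richest barcodes of each library together held 91.7% of its UMIs. For Mzb1 that share was 90.2% of 46 barcodes, for the chemokine gene Cxcl9 92.8% of 30, and for Cxcl13, which recruits B cells, 86.9% of 55, with 22.3, 19.4, 148 and 107 CPM on the high side and 1.97, 0, 4.29 and 2.58 on the low side. By contrast it was 8.17% for Il21, 5.11% for Pdcd1, 8.4% for Lag3 and 7.86% for Cxcr5. Chemokine genes lay between: Ccl4 (3.88 ± 0.46) was read in 181 CD11a-high barcodes with 54.9% in the richest, Xcl1 (4.1 ± 0.34) in 185 with 54.5%, and Ccl1 (4.13) in 35 with 74.8%. The remaining top genes were Sostdc1, a follicular helper gene (3.63), the mitotic genes Ube2c (3.48) and Hmmr (3.29), Fam81a (3.4) and Nrgn (3.21).

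Genes induced by T cell receptor signals were higher on the CD11a-high side, with 14 of 18 risen, none fallen and a median of 0.84. Irf4, whose level follows signal strength, measured 89.8, 111, 69.9 and 101 CPM against 23.7, 20.8, 19.7 and 24.1 (2.1 ± 0.12, edgeR adjusted p = 3.4e-12). Dusp4, a phosphatase that dampens MAP kinases, rose by 2.37, Egr2 by 1.61, and the orphan nuclear receptor genes Nr4a1 and Nr4a3 by 0.63 and 1.43. Costimulatory genes of the TNF family rose, such as Tnfrsf4, encoding OX40 (1.86 ± 0.08), and Tnfrsf9, encoding 4-1BB (1.62), in a list with 12 risen and 4 fallen of 20 (median 0.22). Of 18 genes linked to cell handling on dissociation 3 rose and 8 fell, a larger share than the 20.5% lower over all tested genes. Their median was -0.08, with Fos at -0.70 and Hspa1a at -0.41. Among cells matched on RNA UMIs 6 of the 18 rose and 2 fell (median 0.08). Of all 8595 genes tested there, 967 rose and 849 fell. Hspa1a turned to 0.28 among cells matched on RNA UMIs.

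Cytokine receptor chains split. Of 19 tested, 4 rose and 9 fell. Il2rb, the shared chain of the interleukin 2 and 15 receptors, rose by 1.17 ± 0.09 and Il2ra by 0.92 ± 0.21 (0.53 without replicate 2, 0.43 and not called among cells matched on RNA UMIs, and 0.69 and not called with cells thinned). The chains for interleukin 4, interferon gamma and TGF-beta fell: Il4ra measured 20.8, 22.2, 19 and 23.6 CPM on the high side and 76.9, 58, 65.2 and 71.5 on the low side (-1.65 ± 0.12), Ifngr1 changed by -1.15, Ifngr2 by -1.92 and Tgfbr2 by -1.22. Interferon response genes were lower on the CD11a-high side, with 17 of 22 fallen, 2 risen and a median of -0.88. Gbp2, a guanylate binding protein gene, measured 53, 47, 71.7 and 63.5 CPM against 91.7, 153, 139.8 and 155 (-1.21 ± 0.13), and Usp18, which dampens interferon signalling, changed by -2.05. Ifi27l2a went up (0.71 ± 0.06), and Isg15 was not called (-0.28 ± 0.25) except without replicate 1 (-0.54).

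Signal dampers, metabolism and cytoskeleton showed mixed lists with clear single genes. Of 22 tested genes of anergy and signal damping, 10 rose and 5 fell (median 0.38). Izumo1r, which encodes folate receptor 4, and Nt5e, which encodes the ectonucleotidase CD73, are used together to mark anergic CD4 cells and rose by 0.91 ± 0.07 and 1.07 ± 0.23, as did Egr3 (2.09), while the diacylglycerol kinase gene Dgka fell (-1.11 ± 0.05). Of 14 genes associated with regulatory T cells 11 rose and none fell (median 0.97), among them the cytokine gene Il10 (2.56 ± 0.50). Of 19 glycolysis and hypoxia genes 11 rose and 2 fell (median 0.32): hexokinase 2, Hk2, rose by 1.88, the lactate exporter gene Slc16a3 by 1.97, and Pdk1, which holds pyruvate back from the mitochondria, fell (-1.78). Galectin and S100 genes of effector and memory cells rose, such as Lgals1 (1.42 ± 0.06) and S100a4 (1.59 ± 0.09), in a list with 13 risen and 4 fallen of 25 (median 0.18). Sh2d1a, which encodes SAP, the adaptor through which SLAM receptors support helper cells, rose by 1.03, in a list with 5 risen and 2 fallen of 8. Of 15 genes of MHC class I presentation 2 rose and 7 fell (median -0.13), with the immunoproteasome gene Psmb10 at -0.59.

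Other adhesion genes did not follow Itgal as a set: of 20 tested, 8 rose and 8 fell (median 0.06). Itgb2, the partner chain of CD11a in LFA-1, measured 370.4, 441, 434 and 409 CPM on the high side and 345, 345, 359 and 346 on the low side (0.25 ± 0.06, edgeR adjusted p = 0.0012). Cd44, a hyaluronan receptor of antigen-experienced cells, rose by 0.89 ± 0.10 and Itgav by 1.06. Itga4, the alpha4 chain of VLA-4, measured 351, 355, 506 and 489 CPM against 344, 504, 619 and 573, with overlapping groups. Its difference of -0.26 ± 0.07 was called but not without replicate 2 (-0.17), and it was 0.24 in the other direction among cells matched on RNA UMIs.

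Cell cycle genes rose almost throughout. Of 20 tested genes of G2, M phase and mitosis, 20 rose (median 2.59), and of 20 of G1, S phase and replication 19 rose (median 1.38). Mki67, which encodes the proliferation antigen Ki-67, measured 413, 309, 212 and 298 CPM on the high side and 102, 33.8, 40.3 and 62.9 on the low side (2.45 ± 0.20, edgeR adjusted p = 0.00074), and Top2a, a topoisomerase of dividing cells, measured 289.7, 217, 146 and 228 CPM against 80.8, 28.1, 39.5 and 28.4. With cells thinned to 1000 UMIs, 5.98% ± 1.47 (SD, n = 4) of CD11a-high cells had at least 2 UMIs of 8 mitosis genes against 1.00% ± 0.455 of CD11a-low cells, a threshold added after seeing the data. By the broader threshold of at least 2 UMIs over both cell cycle lists, which also hold widely expressed genes such as Hmgb2 and Stmn1, the shares were 34.6% ± 2.18 and 21.7% ± 2.35. The difference of 12.95 ± 2.12 percentage points was positive in 4 of 4 libraries (exact sign-flip permutation test, two-sided, p = 0.125, the smallest that 4 pairs allow). Genes of survival moved apart, with 12 risen and 3 fallen of 19, among them the anti-apoptotic Bcl2l1 (1.57) and Bcl2a1d (2.14), whose reads may be split among near-identical copies, while Bcl2 measured 55.8, 64.8, 82.6 and 65.5 CPM against 169.5, 128, 64.3 and 117 and was not called, though it was without replicate 3 (-1.13).

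CD11a-high cells held more RNA. The log2 ratio of the median RNA UMIs per cell was 0.60 ± 0.14 (SD, n = 4) and positive in 4 of 4 libraries (exact sign-flip permutation test, two-sided, p = 0.125). Because this moved with the gate, both sides were also compared among cells matched on RNA UMIs. There 1816 of 8595 genes were called, 967 higher and 849 lower. Matching kept 257, 301, 336 and 420 CD11a-high cells. Among them the cell cycle difference was not detected: Mki67 differed by 0.22 (edgeR adjusted p = 0.89), the 14 mitosis genes tested had a median of 0.06, and of 18 genes of replication 1 rose and 2 fell. With cells thinned to 1000 UMIs instead, the difference remained. Of 6643 genes tested on thinned cells 703 were called higher and 657 lower. Among these genes 7 of 8 mitosis genes rose (median 2.18), as did 9 of 15 replication genes (median 0.64). None of either list fell. Among matched cells, 8 of 19 interferon response genes fell and 2 rose (median -0.33). The helper and inhibitory differences were still there: 15 of 18 helper genes rose (median 1.42), 16 of 19 inhibitory genes rose (median 1.48), Il21 differed by 2.55, Pdcd1 by 2.08, Lag3 by 2.28 and Itgal by 0.81. Of 20 naive and stem genes 13 still fell (median -1.02) and of 13 recirculation genes 10 fell and 1 rose, with S1pr1 at -1.38 and Klf2 at -1.07. Leaving out barcodes with over 2 times their library's median UMIs, a guard against doublets, left 2655 called genes. Other genes named here that were called over all cells but not among matched ones were Myb (0.11), Ifng (1.61), Itgae (2.16), Xcl1 (3.18), Ube2c (0.75), Fos (-0.56), Spp1 (2.8) and the cycle genes Top2a (0.11), Hmgb2 (0.01) and Stmn1 (-0.56). Gata3 was called there (0.51). Psmb10 was not called with cells thinned (-0.32). With 1 cell per clonotype and side 8 named genes lost their call. Among them were Cxcr3 (1.31), Ifng (1.13), Fos (-0.58), Tcf7 (-0.09) and Cd40lg (-0.16).

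**Figure D2:**
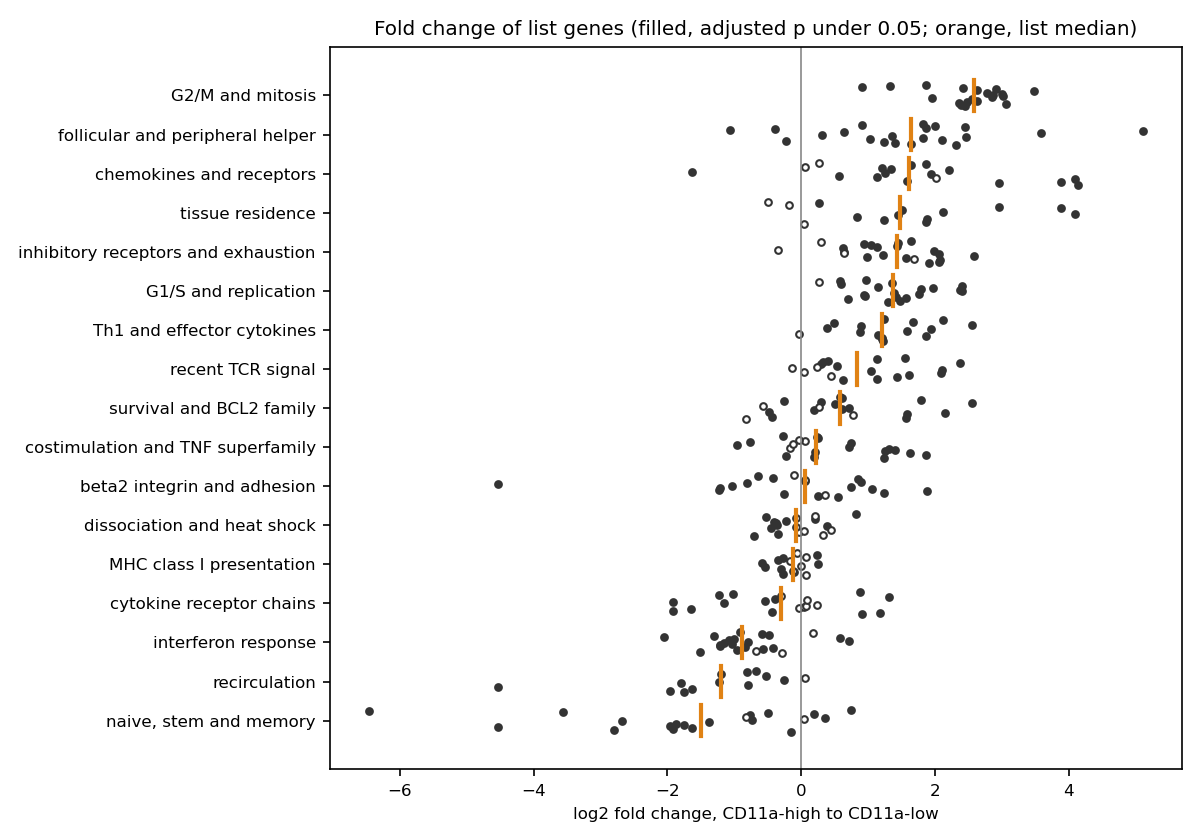
log2 fold change of CD11a-high to CD11a-low (horizontal axis) for the tested genes of 17 lists, 1 point per gene, filled where the edgeR adjusted p was under 0.05, with the median of each list in orange. Medians run from 2.59 for mitosis genes to -1.5 for naive, stem and memory genes.

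Summed RNA of B cell markers differed between the sides, while that of myeloid and acinar markers overlapped. B cell markers summed to 1496 to 3344 CPM in CD11a-high libraries and 297 to 969 in CD11a-low ones, with 4 of 9 risen. Myeloid markers summed to 357 to 647 against 121 to 408, with 2 of 8 risen, near the 22.4% risen over all tested genes. The defining B cell gene Ms4a1 was at 8.22, 4.86, 10.6 and 14.8 CPM against 2.96, 0, 2.57 and 0 and the macrophage gene C1qa at 16, 26.8, 36.4 and 65.9 CPM against 32.5, 14.1, 0.858 and 4.31. Acinar and ductal markers summed to 82.1 to 278 CPM against 53.4 to 1174, and of 9 tested 1 rose, Spp1 (2.94 ± 0.65, edgeR adjusted p = 0.041), whose call was lost without replicate 1, 2 or 3 (2.68, 2.28 and 3.17). The part of acinar RNA in the low side's values was not tested. Without every barcode that held a UMI of 10 B, plasma or myeloid genes, 4315 of 9978 genes were called, 2257 of them higher. There 17 of 20 helper genes rose (median 1.58) and Il21 differed by 2.31. The rule removed cells with a Foxp3 UMI, but 7.31%, 9.57%, 4.73% and 5.84% of CD11a-high cells against 1.49%, 0.781%, 1.94% and 2.0% of CD11a-low cells had UMIs of both Ikzf2 and Il2ra, genes that regulatory T cells also express. Without these cells 4182 genes were called.

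Invariant natural killer T cell receptors, which join TRAV11 to TRAJ18, were read in 4, 12, 12 and 14 CD11a-high cells and in 0, 0, 0 and 1 CD11a-low cells. Zbtb16, the transcription factor of these innate-like T cells, measured 3.89, 4.39, 7.24 and 4.03 CPM against 0, 0, 0 and 1.72 (3.48 ± 0.74). Its low-side UMIs all came from replicate 4, and without that replicate no fold is given. Without cells with such a receptor 4373 genes were called.

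Within the CD62L-low CD4 cells the genes did not move at the same CD11a level. Igfbp4 and Lef1 were lower already between the gates: Igfbp4 was at 515 ± 144 CPM at a CD11a count of 20 to 69, 352 ± 185 at 70 to 120 and 51.1 ± 33.2 at 121 to 199 (mean ± SD, n = 4). Lef1 was at 618 ± 206 CPM at 70 to 120 and 261 ± 63.3 at 121 to 199. Tbx21 was higher by then, with 26.6 ± 8.95 CPM at 70 to 120 and 68.4 ± 13.2 at 121 to 199, and its highest mean was 75 ± 24 at 200 to 299. Il7r, S1pr1 and Klf2 were still at their low-side level between the gates, Il7r at 546 ± 114 CPM, and were lower from a count of 200 on, Il7r at 308 ± 75.8, 98.4 ± 29.7 and 60.5 ± 11.9 CPM. Pdcd1 and Il21 were higher over that upper range, Pdcd1 with 72.6 ± 13.7 CPM between the gates and 245 ± 47.4 at 300 to 499 and Il21 with 43.6 ± 9.99 and 203 ± 45.9. At a count of 500 or more, Mki67 was at 566 ± 142 CPM, against 223 ± 49.9 at 300 to 499, and the median RNA UMIs per cell stood at 8343 ± 2445. Pdcd1 and Il21 were lower there than at 300 to 499, at 205 ± 24 and 136 ± 29.3 CPM. These bins are a description and were not tested.

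**Figure D3:**
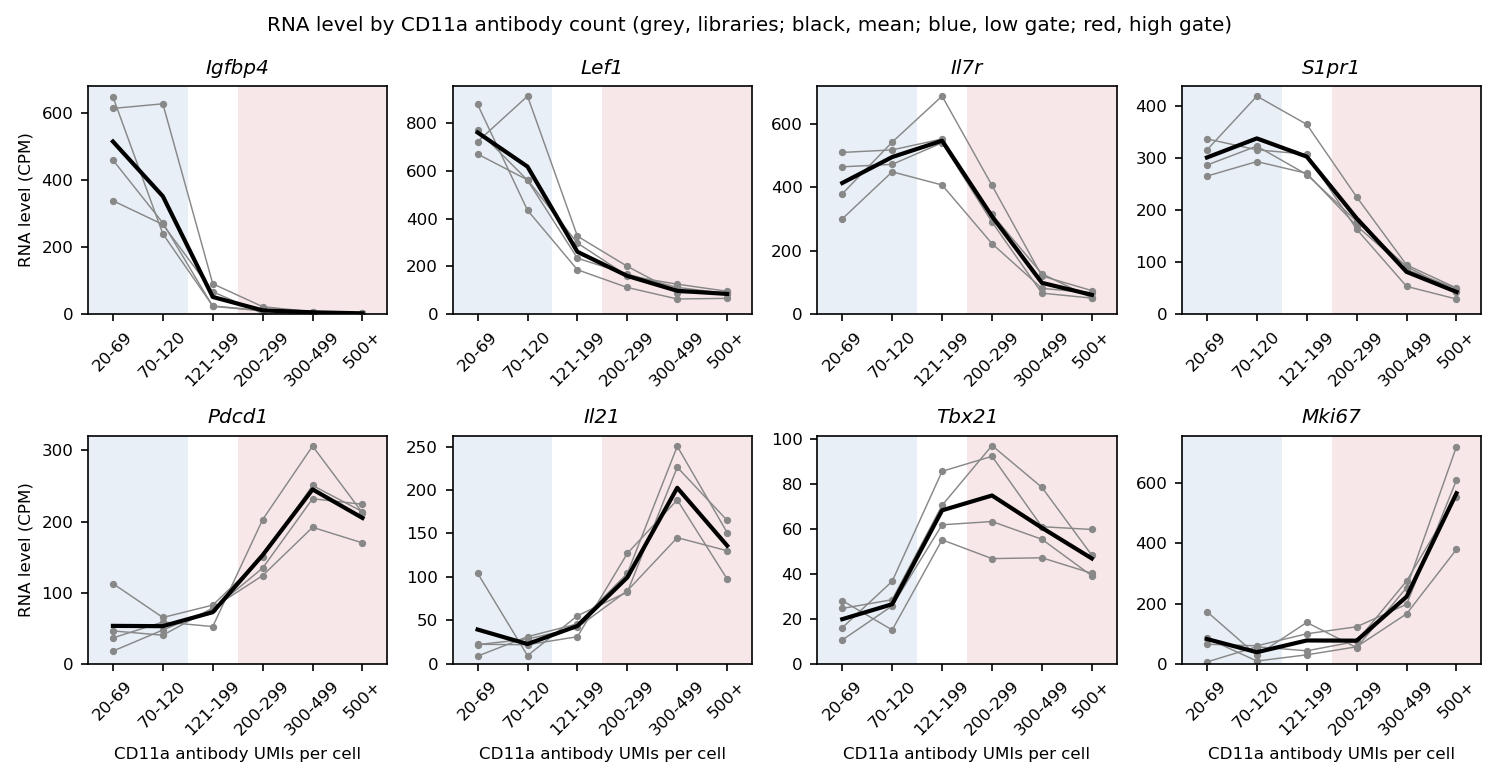
RNA level in CPM (vertical axes, from 0) of 8 genes against the CD11a antibody count per cell in 6 bins (horizontal axes), with 1 grey line per library and the mean of 4 libraries in black. Igfbp4 and Lef1 are lower from 121 counts on, Tbx21 is high from there, and Il7r and S1pr1 decline from 200 counts on, while Pdcd1 and Il21 have their highest mean at 300 to 499 and a lower one at 500 or more.

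The gate edges fell on a slope rather than at a gap. Cells with a CD11a count of 180 to 199 (247 cells, outside the high gate) had 92.8 ± 24.1 CPM of Pdcd1 and 65.3 ± 16.7 of Il21, and those with 200 to 220 (258 cells, inside it) 97.6 ± 46.1 and 64.4 ± 16. At the low gate, cells with 100 to 120 counts (347, inside) had 566 ± 38.5 CPM of Il7r and those with 121 to 140 (312, outside) 533 ± 144.

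Clones were then compared. A clonotype is a set of identical productive alpha and beta chain CDR3 sequences, with 1 beta chain, within a library. A paired receptor was read in 2143 CD11a-high cells, with 1153 clonotypes, and 1059 CD11a-low cells, with 1004 clonotypes. At equal cell numbers, 51.1%, 64.2%, 38.2% and 46.4% of CD11a-high cells in replicates 1 to 4 belonged to a clone with at least 2 cells on that side, against 12.3%, 10.03%, 5.61% and 6.62% of CD11a-low cells. The difference was 41.3 ± 9.12 percentage points (SD, n = 4), positive in 4 of 4 libraries (exact sign-flip permutation test, two-sided, p = 0.125). CD11a-high cells were thus the expanded side in each library, by far more than the spread between libraries. By CD11a count, the mean share of paired cells in a clone of at least 2 CD62L-low CD4 cells was taken unthinned. It was 19.6% at 20 to 69, 15.7% at 70 to 120, 28.5% between the gates, 47.1% at 200 to 299 and 72.1% at 500 or more.

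Some clones had cells on both sides. Of the clonotypes, 83 had cells in both gates, which was 7.66% ± 3.37 of those on the high side and 8.34% ± 1.2 of those on the low side (SD, n = 4). Most clonotypes were read in 1 cell and could not be on both sides. Of the clonotypes with at least 2 CD62L-low CD4 cells, 317 had cells on the high side and 127 on the low side, and the 83 were 26.8% ± 6.79 and 64.7% ± 7.14 of these. They held 25.1% ± 11.7 of the CD11a-high and 10.7% ± 1.59 of the CD11a-low paired cells. A small clone can have been missed on 1 side at this number of cells. The beta chain CDR3 of the largest clone of each library is shown because these clones show how far 1 clone can range in CD11a. The sequences run 5' to 3' in lower case.
Replicate 1, TRBV15 TRBJ2-7: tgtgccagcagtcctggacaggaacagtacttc
Replicate 2, TRBV15 TRBJ2-7: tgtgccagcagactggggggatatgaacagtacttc
Replicate 3, TRBV20 TRBJ1-2: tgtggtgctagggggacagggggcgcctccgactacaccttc
Replicate 4, TRBV14 TRBJ1-6: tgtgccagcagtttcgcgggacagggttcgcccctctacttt
The clone of replicate 1 had 54 CD62L-low CD4 cells, 48 of them CD11a-high and 4 CD11a-low, and its CD11a counts ran from 45 to 882. The clone of replicate 2 had 28 cells, 25 high and 2 low, with counts from 32 to 822. The clones of replicates 3 and 4 had 32 of 32 and 48 of 55 cells on the high side and none on the low side, with counts from 210 to 848 and from 122 to 994.

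**Figure D4:**
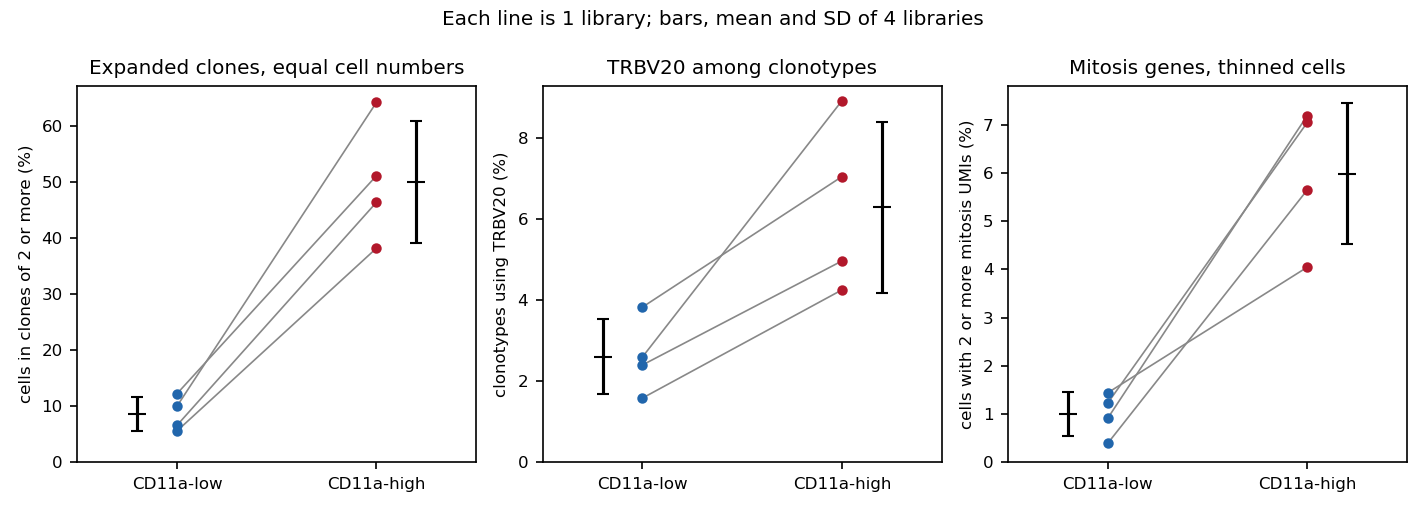
Share of paired cells in clones of 2 or more at equal cell numbers, share of clonotypes with TRBV20, and share of thinned cells with 2 or more mitosis gene UMIs (all in %, axes from 0), for CD11a-low (blue) and CD11a-high (red) cells, with 1 line per library and bars for mean and SD (n = 4). All 3 shares are higher on the CD11a-high side in each of the 4 libraries.

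V gene usage was compared over clonotypes, each counted once per side. Of 11 beta chain genes tested 1 was called (9.09%). TRBV20 was used by 10, 19, 16 and 27 CD11a-high clonotypes, or 6.30% ± 2.11 (SD, n = 4), and by 3, 9, 5 and 10 CD11a-low clonotypes, or 2.61% ± 0.927, a difference of 1.26 ± 0.25 (edgeR adjusted p = 0.00053). It was not called without replicate 2 or without replicate 4. Counted by cells, TRBV15 also differed, with 17.7% ± 2.66 of CD11a-high and 6.75% ± 1.47 of CD11a-low paired cells, while over clonotypes it was not called (8.44% ± 1.43 against 6.34% ± 1.58). Of 4 alpha chain genes tested 1 was called (25%): TRAV5-4 with 10.3% ± 2.42 of CD11a-high and 6.37% ± 2.65 of CD11a-low clonotypes (0.67 ± 0.22, edgeR adjusted p = 0.045), not called without replicate 1, 3 or 4. Its near copy TRAV5D-4, known from insulin-reactive CD4 T cells of NOD mice, was used by 11, 13, 15 and 19 against 0, 9, 7 and 7 clonotypes (1.16 ± 0.49, edgeR adjusted p = 0.072) and was not called. Counted by cells it was called, with 7.99% ± 3.81 of CD11a-high and 2.34% ± 1.61 of CD11a-low paired cells (1.75 ± 0.47, edgeR adjusted p = 0.0026). Reads of such copies may be assigned to either.

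The CD11a contrast was then asked within clones. For the clonotypes present on both sides, 167, 157, 79 and 104 CD11a-high cells were set against 23, 45, 23 and 23 CD11a-low cells. Of 5766 genes tested 3 were called (0.052%): the chemokine gene Ccl3 (3.43 ± 0.50) and Spp1 (4.2 ± 0.43) were higher on the high side and Hspa1a lower (-0.72 ± 0.12), with 340 genes at an unadjusted p under 0.05. Calls numbered 83 without replicate 1, 2 without replicate 2 and 5 without replicate 3 or 4. Il21 differed by -0.20 ± 0.21, Pdcd1 by 0.22 ± 0.23, Itgal by -0.21 ± 0.18 and Il7r by -1.75 ± 0.51, none called. Over all cells the differences of Il21, Pdcd1, Itgal and Il7r were 2.32, 1.91, 0.55 and -1.92. With 23 to 45 CD11a-low cells per library, a gene that was not called here is not shown to be unchanged. Whether the effect in shared clones differed from that in the other cells was not tested here.

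To use more cells, clonotypes were divided by their size among all CD62L-low CD4 cells, at least 2 cells (expanded) or 1 (single), a comparison added after seeing the data. Single clonotypes gave 180, 138, 242 and 276 CD11a-high and 164, 308, 178 and 227 CD11a-low cells. Expanded ones gave 281, 321, 273 and 432 CD11a-high and 40, 61, 36 and 45 CD11a-low cells. Within single clonotypes 2305 of 8423 genes were called (27.4%) and within expanded ones 58 of 8721 (0.665%). At equal cell numbers in both classes the counts were 709 of 7000 (10.1%) and 50 of 7662 (0.653%).

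The difference between the 2 classes was itself tested in 1 model, and 186 of 9109 genes were called (2.04%). In that model 2103 of the 9109 genes were called within single and 167 within expanded clonotypes. Of 20 helper genes 9 had effects that differed between the classes, with list medians of 1.92 in single and 0.36 in expanded clonotypes, and of 20 inhibitory genes 7, with medians of 1.78 and 0.26. In expanded clonotypes 3 helper genes were called higher, Cxcl13, Tnfrsf4 and Angptl2 (5.32, 0.87 and 1.02), and no inhibitory gene was called. Over all CD11a-high cells, most Cxcl13 UMIs came from few barcodes, as given above. Lag3 differed by 2.96 in single and 0.29 in expanded clonotypes (edgeR adjusted p of the difference = 1.8e-06), Tigit by 2.96 and 0.44 (8.4e-06), Icos by 1.87 and 0.12 (3.7e-05), Cxcr5 by 2.7 and -0.10 (7.6e-05), Tbx21 by 2.41 and -0.19 (0.00027), Il21 by 3.79 and 0.34 (0.012) and Itgal by 0.74 and -0.07 (0.0067). Lag3 measured 168, 121, 183 and 202 CPM in the CD11a-high and 12, 14.3, 43.6 and 16.5 in the CD11a-low cells of single clonotypes, and 346, 527, 432 and 479 and 292, 410.4, 379 and 377 in those of expanded clonotypes. Between the classes, the Lag3 values of CD11a-low cells thus differed by a larger factor than those of CD11a-high cells.

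Of 13 recirculation genes 3 had effects that differed, a larger share than the 2.04% over all tested genes. In single clonotypes 9 of the 13 were called lower and in expanded ones 5, with list medians of -0.83 and -0.74. The list as a whole thus did not keep its calls in expanded clonotypes. Examples with nearly equal or larger effects there were S1pr1, Rasgrp2 and Itgb7 and the marker gene Il7r. S1pr1 differed by -1.57 in single and -1.65 in expanded clonotypes (edgeR adjusted p of the difference = 0.93), Rasgrp2 by -1.35 and -1.41 (0.96), Itgb7 by -0.86 and -0.82 (0.98) and Il7r by -1.3 and -2.32 (0.46), all called lower in both classes. S1pr1 measured 57.7, 53, 78.8 and 82.2 CPM in CD11a-high and 116, 205, 271 and 269.98 in CD11a-low cells of expanded clonotypes, with no overlap. Pdcd1, at 2.1 and 0.53, was called in single clonotypes only, but its effects were not shown to differ (0.18). The count of genes whose effects differed was 309, 55, 99 and 97 without replicates 1, 2, 3 and 4.

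**Figure D5:**
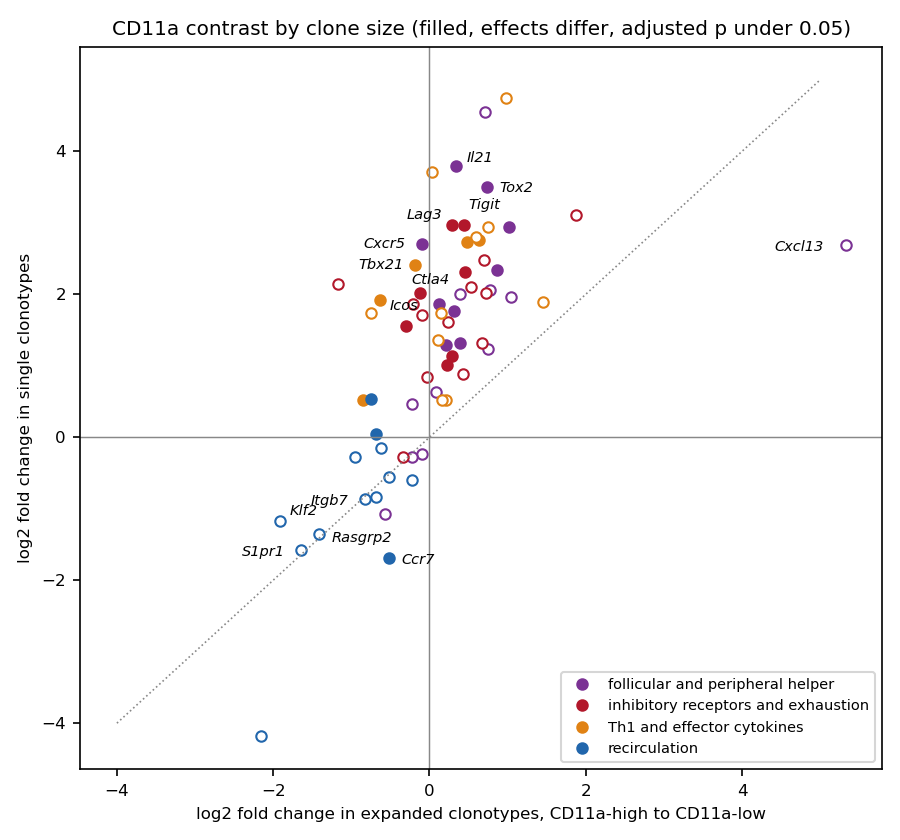
log2 fold change of CD11a-high to CD11a-low in single clonotypes (vertical axis) against that in expanded clonotypes (horizontal axis) for tested genes of 4 lists, filled where the effects differ with an edgeR adjusted p under 0.05; the dotted line marks equal effects. Lag3, Cxcr5 and Tbx21 lie well above the line, while S1pr1, Rasgrp2 and Itgb7 lie near it.

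The same CD11a gates were applied to CD8 T cells (CD62L antibody count at most 3, at least 1 UMI of Cd8a or Cd8b1, CD4 antibody count at most 15), which gave 1292 CD11a-high and 550 CD11a-low cells. The CD11a effect differed between CD4 and CD8 cells for 215 of 10130 genes (2.12%), 137 of them with the more positive effect in CD4. Counts were 127 without replicate 2 and 98 without replicate 4. Itgal (0.56 in CD4 and 0.41 in CD8), Pdcd1 (1.92 and 1.98), Il7r (-1.91 and -2.11) and Igfbp4 (-6.45 and -6.27) were not called different. Il21 was at 2.32 and 0.44, not called different either (edgeR adjusted p = 0.52, SE of the difference 1.07). Among genes with the largest differences, Il6ra fell less in CD4 (-1.07) than in CD8 cells (-3.81), Tnfsf8, encoding CD30 ligand, rose in CD4 and fell in CD8 (1.26 and -1.16, edgeR adjusted p = 0.0087), as did H2-DMa, a gene of MHC class II loading (0.93 and -1.15). In the other direction Fasl, the death ligand gene, was called higher in CD8 (1.82) and not in CD4 cells (-0.12), though among CD4 cells matched on RNA UMIs it was called higher too (0.83). Itm2a and Gpr183 fell in CD4 and rose in CD8 cells (-1.09 and 0.54, -0.53 and 0.89). In the CD4 contrast the call of Gpr183 was lost without replicate 4 (-0.46), among cells matched on RNA UMIs (-0.03), without barcodes of high UMI counts (-0.07) and with cells thinned (-0.22), and that of H2-DMa among matched cells (0.19). Btla, an inhibitory receptor gene of helper cells, rose in CD4 and fell in CD8 cells (0.64 and -0.86, edgeR adjusted p = 0.00025), as did Itgae (1.24 and -0.76), while Itga4 did the reverse (-0.25 and 0.61).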

How the data were processed

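RNA, antibody and T cell receptor libraries of 4 replicates were analysed. The authors deposited raw UMI counts per gene or antibody and barcode, made with Cell Ranger 4.0.0 per the file headers; the submitters' processing notes name the mm10 build and Seurat. For the receptor files no software version was found in the labels or headers. Barcodes were joined within a replicate and filtered as the report states. No doublet caller was run: barcodes with 2 or more beta chains were left out, and leaving out high-UMI barcodes was an alternative.

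UMI counts were summed per side and library and tested in R 4.3.3 with edgeR 4.0.16 (filterByExpr, TMM scaling, robust quasi-likelihood fit, library as block, Benjamini-Hochberg adjustment over all tested genes); the script was tested on simulated counts. Both sides of a pair come from 1 library, so they are paired by construction: same-library deviations from the group means correlated at 0.097, 0.14, 0.19 and 0.19. DESeq2 1.42.0, other scalings, gates and filters, thinned cells and omitted replicates were alternatives. As separate mice are not named, p-values measure the spread between these libraries. Intervals of shares were not computed, since SDs over libraries are given.

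Members and gene lists were chosen with earlier results of these data known. Named genes were the 4 markers, the first 6 genes and the 4 largest called changes of each of 34 lists, and the 12 highest and 12 lowest fold changes among called genes with an average log2 CPM of at least 4 and 1 direction in 4 of 4 libraries. For CD4 against CD8 the 6 largest differences each way were ranked. Bach2, Myb, Id3, Cxcr4, Maf, Il6st, Cd200, Gata3, Hspa1a, Ifngr1, Tgfbr2, Ifi27l2a, Cd44, Itgav, Hmgb2, Stmn1 and Btla lie outside this rule and were named after their values were seen. Some members of the lists are counted with their list but not reported here by name.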

Additional observations from a re-analysis of the deposited data

Results flagged for a closer look

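In 8 of 129 groups of 4 libraries tested, 1 library's log2 ratio of CD11a-high to CD11a-low stood apart from the other three, and chance gives this in about 1 in 20 groups. Cxcr5 had a ratio of 1.12, Ccl4 of 1.95 and S100a4 of 1.92 in replicate 1. Klf2 had -2.27, Cxcr4 0.28 and Hspa1a -0.59 in replicate 2. Itgae had 0.29 and the survival gene Bcl2a1d 2.42 in replicate 4.

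The effect of CD11a differed between CD62L-low CD4 and CD8 cells by edgeR's test of the difference for the genes with the largest differences, given here as the log2 effect in CD4 minus that in CD8. It was 4.06 for Cd4, which the gates of both lineages select on at the protein level, 2.78 for Plekho1, 2.74 for Il6ra, 2.42 for Tnfsf8, 2.08 for H2-DMa and 2.02 for Tgtp1. It was -1.94 for Fasl, -1.83 for Cd7, -1.63 for Itm2a, -1.58 for Arsb, -1.42 for Gpr183 and -1.34 for Fam69a.

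The effect in single clonotypes minus that in expanded clonotypes, tested in the same way, was 2.68 for Lag3, 3.45 for Il21 and 2.80 for Cxcr5.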

How the results depend on the processing

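Of the genes called between CD11a-high and CD11a-low cells, 4375 in all, 3942 were called without the replicate block and 3534 to 3925 with 1 replicate left out. The count was 2605 with DESeq2, 2215 at a CD62L count of 0, 2655 without high-UMI barcodes, 2863 with 1 cell per clonotype and side, 1360 with cells thinned, 1816 with cells matched on RNA UMIs, 1912 when matching was joined with leaving out Ikzf2 and Il2ra, B cell UMI and mitosis gene cells, and 820 without cells with 2 or more cell cycle list UMIs, which left 1032 of 4398 cells. By clonotype class it was 58, 2305, 50 and 709 as in the report. Genes that differed between single and expanded clonotypes numbered 89 without the block, 440 with no filter and 55 to 309 with a replicate left out. Between CD4 and CD8 they numbered 88 without the block, 589 with no filter, 69 thinned, 60 with 1 cell per clonotype, 45 without cell cycle list cells and 98 to 157 with a replicate left out. Within shared clones it was 0 without the block (373 at an unadjusted p under 0.05), 35 with no filter and 2 to 83 with a replicate left out, and leaving out cell cycle list cells was not run because too few cells were left. Calls of TRBV and TRAV genes ranged from 0 to 1 with a replicate left out and were 5 for each by cells. The expanded share differed by 51.9 points with gates per library and 29.5 at a CD62L count of 0. The cycling share differed by 23.1 points unthinned, 4.98 by mitosis genes, 15.6 with stricter gates, 17.4 with gates per library, 15.2 without PE counts and 6.77 without high-UMI barcodes. The log2 RNA ratio was 1.08 by means, 0.21 without cell cycle list cells, 0.83 with stricter gates, 0.96 with gates per library and 0.40 without high-UMI barcodes. The cause of these shifts was not tested.

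Over 126 named genes, 2790 alternative values had the same direction and call, 121 lost the call and 33 gained it. The sign changed in 25. Without high-UMI barcodes it was 0.02 for Tcf7, 0.07 for Cd40lg, 0.07 for Hspa1a, 0.11 for Itga4 and -0.25 for Stmn1. Without cell cycle list cells it was 0.23 for Tcf7, 0.06 for Il6st, 0.03 for Cd40lg, 0.24 for Itga4, -0.32 for Hmgb2 and 0.26 for Gpr183. Matched on RNA UMIs it was 0.01 for Tcf7 (and 0.01 thinned), 0.18 for Cd40lg, 0.28 for Hspa1a, 0.24 for Itga4, -0.56 for Stmn1 and 0.83 for Fasl. With matching and the joint omissions it was 0.10 for Tcf7, 0.16 for Cd40lg, 0.21 for Hspa1a, 0.30 for Itga4, 0.68 for Fasl and 0.11 for Gpr183. Stmn1 was at -0.17 without mitosis gene cells. The contrasts within clones rest on few CD11a-low cells, 36 to 61 per library in expanded and 23 to 45 in shared clonotypes.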
